A study of Drosophila melanogaster with 2 samples.

Results

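Mediator, the TBP-associated factors and the general transcription factors form the machinery that starts transcription by RNA polymerase II. Binding of Ravus-eGFP, a fusion of the Drosophila melanogaster protein Ravus with enhanced green fluorescent protein, was examined at the promoters of the genes that encode them. The members were taken by a rule on gene names, chosen with earlier results of these data known. They are protein-coding genes on the chromosome arms. Their Ensembl symbol starts with MED or Taf and a digit, starts with TfII, or is Tbp. There were 50 of them among 13968 protein-coding genes, namely 25 Mediator subunit genes, 15 Taf genes and 10 genes of general factors. The last group also takes in TfIIS, which encodes an elongation factor rather than an initiation factor.

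The data are chromatin immunoprecipitation with sequencing (ChIP-seq) from whole embryos aged 0 to 24 h, in 1 group of 2 biological replicates. All embryos came from the Ravus-GFP strain, which carries an insertion aimed at Ravus, and the precipitation used an anti-GFP antibody. There was no second genotype, treatment or stage. Whole embryos mix all cell types and all stages of embryogenesis, so a weak peak in every cell and a strong peak in few cells cannot be told apart. The depth of the libraries is unknown, and a promoter without a peak cannot be told from one below the detection limit. The values are the authors' own peak lists, 8 in all, and the signal of each peak is a value from the authors' peak caller whose scale the sources used here do not state.

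TFIID, made of TBP and the Tafs, recognises core promoters, and TFIIA and TFIIB hold TBP on the DNA. TFIIF brings in the polymerase, and TFIIE and TFIIH help to open the DNA. Mediator joins sequence-specific activators to the polymerase, and its subunits are grouped into head, middle and tail modules from structures of the yeast and mammalian complexes.

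Ravus-eGFP had a promoter peak in the conservative list at 6 of the 50 members, where a promoter peak means a summit within 500 bp of an annotated start site. That is 12% of the members, against 7.09% of all protein-coding genes. The 6 genes were MED7, MED17, MED27, MED30, Taf5 and TfIIA-L. Every one of these summits lay upstream of the member's nearest start site and between it and that of a second gene read in the opposite direction. The distance from the member's start site ran from 86 to 172 bp, and the next member outward, Taf12, had its nearest conservative summit 1449 bp away. No member therefore stood near the 500 bp limit.

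The DNA under these summits was rich in A and T. The windows printed here reach 50 bp to either side of the summit at 5 of the 6 promoters, on the strand of the member gene from 5′ to 3′, with the summit at position 51 and the longest run of A and T letters in capitals. They come from the reference sequence of the dm6 assembly. The MED27 window is chr3R:5654965-5655065 and the MED7 window is chr3R:10761068-10761168. The MED17 window is chr3R:18188867-18188967, the MED30 window is chr3L:654199-654299 and the TfIIA-L window is chr3R:27253208-27253308. The window of MED6, chr3R:9767806-9767906, is added for contrast, since its peak passed the threshold in replicate 2 alone and its summit was not AT-rich.
MED27: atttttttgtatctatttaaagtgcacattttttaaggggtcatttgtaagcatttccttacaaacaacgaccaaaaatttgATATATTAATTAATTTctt
MED7: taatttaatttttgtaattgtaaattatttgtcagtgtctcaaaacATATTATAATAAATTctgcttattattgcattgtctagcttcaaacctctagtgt
MED17: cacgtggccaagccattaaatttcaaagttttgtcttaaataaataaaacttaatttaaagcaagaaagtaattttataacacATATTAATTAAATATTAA
MED30: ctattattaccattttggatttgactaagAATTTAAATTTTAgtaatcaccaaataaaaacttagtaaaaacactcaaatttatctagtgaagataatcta
TfIIA-L: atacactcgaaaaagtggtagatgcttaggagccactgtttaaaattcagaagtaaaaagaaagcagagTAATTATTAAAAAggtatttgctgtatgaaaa
MED6: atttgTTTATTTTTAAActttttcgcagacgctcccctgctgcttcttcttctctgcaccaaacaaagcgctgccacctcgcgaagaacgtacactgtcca

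In the capitals the runs of A and T were 16 bp at MED27, 15 bp at MED7, 18 bp at MED17, and 13 bp at both MED30 and TfIIA-L. The MED17 run reached the edge of the window, so 18 bp is its length within the window only. Over all 767 conservative promoter peaks the longest such run had a median of 12 bp, with quartiles of 9 and 15 bp. The runs did not share 1 sequence or 1 position. At MED7 the run lay over the summit, from 4 bp before to 10 bp after it, at MED30 it ended 9 bp before the summit, and at the other 3 it began 19 to 33 bp after it. In the MED6 window the run was 12 bp long. MED6 does not stand for all members outside the conservative list. Taf4 and TfIIB, described below, had runs of 15 and 18 bp that lay over the summit.

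GC content put numbers on this pattern. In the windows reaching 50 bp to either side of the summit it was 23.6% ± 3.73 (SD over the 6 member peaks) against 51.1% ± 5.27 in equal windows whose centres lay 300 bp from the summit. The mean over the 767 conservative promoter peaks was 30.1% ± 9.06 (SD over peaks) at the summit and 44.6% in the flanks. At all 6 member peaks the flank windows lay beyond the start sites of both genes, which were at most 210 bp from the summit. Of all 767 summits only 40.7% had 2 or more genes with a start site within 500 bp, so the flanks are not alike. MED30 had the widest contrast, with 21.8% at the summit and 54.5% in the flanks. TfIIA-L had the highest GC of the 6 summits, 30.7%, beside flanks of 55%. At MED6 the summit window held 46.5% GC and the flanks 43.1%, so the summit lay above its flanks.

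**Figure D1:**
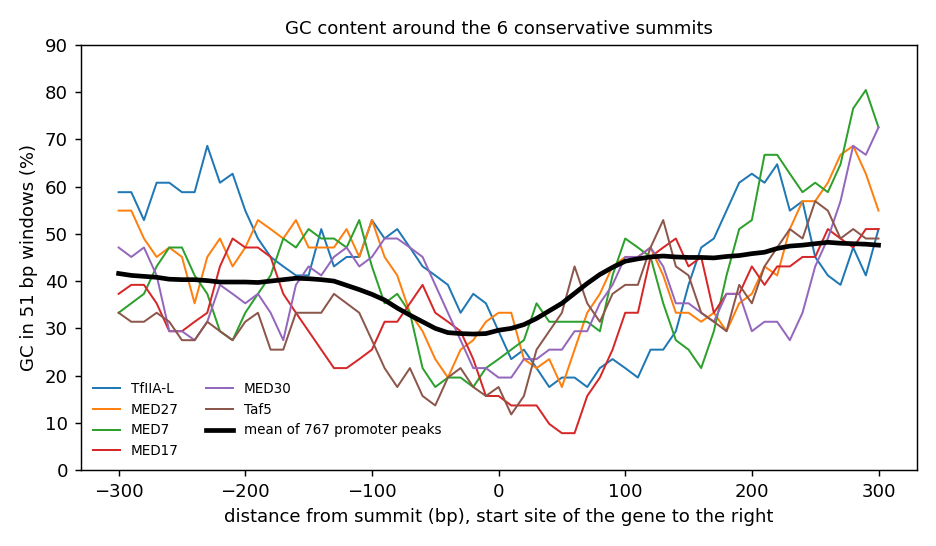
GC content in 51 bp windows (vertical axis, percent) by distance from the summit in bp (horizontal axis), with the start site of the gene to the right of the summit. Thin lines are the 6 conservative member peaks and the thick black line is the mean of the 767 conservative promoter peaks. Every thin line has a low stretch near the summit, though not always at it. At the summit itself MED27 had 33.3%, above the mean of 29.6%, and the other members lay below that mean. The lowest MED17 value, 7.84%, lay 50 and 60 bp after the summit. The wider windows of 50 bp to either side average 23.6% against 30.1% over all promoter peaks.

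Among the Mediator genes, 4 of 25 had a conservative promoter peak, or 16%, and MED27 had the strongest. MED27 encodes a subunit placed in the tail. Its peak at chr3R:5654860-5655169 had a signal of 169, rank 472 of the 1474 conservative peaks. Replicate 1 gave it a signal of 86.9 at rank 357 of 52143 ranked peaks, and replicate 2 gave 79.4 at rank 731 of 37242. The replicates' summits lay 5 bp apart, and the peak was present in all 8 lists.

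MED30, a subunit of the head in metazoan Mediator, had a peak at chr3L:654094-654403 with a signal of 136 and rank 701. Its signal was 49.4 at rank 990 in replicate 1 and 86.8 at rank 603 in replicate 2. It too was in all 8 lists, although the replicates' summits were 62 bp apart. The summit was nearer to the start site of Rev1, a translesion DNA polymerase gene, at 114 bp, than to that of MED30 at 160 bp.

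MED17 and MED7 had weaker peaks, and each was missing from the thresholded list of 1 replicate. MED17, a scaffold of the head, had a signal of 96.5 and rank 1170 in the conservative list. In replicate 2 it had a signal of 62.7 at rank 1050, and in replicate 1 a signal of 34.6 at rank 1822. The authors' ranked lists hold the −log10 of the IDR (irreproducible discovery rate), which is high where a peak ranks high in both of a pair of input lists, and the limit for the thresholded lists was 2. For MED17 this value was 3.22 in replicate 2 and 0.14 in replicate 1.

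MED7, a subunit of the middle, had the lowest signal of the 6, 86.9 at rank 1328. The replicates' signals were close, 43.5 and 43.8, but the −log10 IDR was 2.66 in replicate 1 and 1.29 in replicate 2. Its replicate summits were 68 bp apart, at 20 and 88 bp upstream of the start site.

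The module of MED27 to MED30 differs between structural accounts, and here MED27 was counted with the tail and MED28 and MED30 with the head. By module, 2 of 9 head genes, 1 of 9 middle genes and 1 of 6 tail genes had a conservative promoter peak, and MED14, the backbone of the complex, had none. In the ranked lists, which also hold weak peaks, all 6 tail genes had a summit within 500 bp in both replicates. The head had 5 of 9 in replicate 1 and 6 of 9 in replicate 2, and the middle had the same counts. The shares of all protein-coding genes in those lists were 45.1% in replicate 1 and 46.9% in replicate 2. Apart from MED27, the tail genes' peaks in these lists were weak: MED15, MED16, MED23, MED24 and MED25 had signals from 9.48 to 23.4 in replicate 1 and from 12.9 to 20.5 in replicate 2.

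Taf5 was the 1 Taf gene of 15 with a conservative promoter peak, a share of 6.67% beside the 7.09% of all protein-coding genes, and it had the strongest peak of all 50 members. It encodes a subunit of TFIID with WD40 repeats. The peak lay at chr2R:10879774-10879880 with a signal of 219, rank 284 of 1474. This interval was 107 bp wide, beside a median of 310 bp in the conservative list. Its summit lay 25 bp from that of replicate 1 and 26 bp from that of replicate 2. Replicate 1 gave a signal of 98.2 at rank 283 and replicate 2 gave 123 at rank 307, with summits 1 bp apart. The −log10 IDR was 5 in both, the highest value the lists hold. The GC content of its summit window was 20.8%, against 43.6% in the flanks.

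TfIIA-L, which encodes the precursor of the large TFIIA subunits, was the 1 general factor gene of 10 with a conservative promoter peak. The peak at chr3R:27253103-27253412 had a signal of 118 and rank 878. Replicate 2 gave a signal of 80.3 at rank 712, and replicate 1 gave 41.3 at rank 1350 with a −log10 IDR of 1.99, just under the limit. The peak was therefore in the thresholded list of replicate 2 and not in that of replicate 1. TfIIA-L has 2 annotated start sites. The summit fell within the gene body, 172 bp before the nearer of these and 76 bp from the start site of pll, the kinase gene of the Toll pathway, which is read the other way.

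Within the 767 conservative promoter peaks the members were of ordinary strength. Their signals ranked 187 for Taf5, 287 for MED27, 409 for MED30, 502 for TfIIA-L, 643 for MED17 and 708 for MED7. The median signal was 127 over the 6 member peaks and 142 over all promoter peaks, and 2 of the 6 lay above the latter. The median distance to the member's start site was -144 bp, with upstream written as negative. For all promoter peaks the median distance to the nearest start site was -134 bp, with quartiles of -217 and -76 bp.

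A further 3 members had a promoter peak in some thresholded list but not in the conservative one, which makes 9 of 50, or 18%, in at least 1 thresholded list, beside 10.1% of all protein-coding genes. TfIIB, whose product bridges TBP and the polymerase, had a signal of 88.9 at rank 1338 in the second thresholded series list. Replicate 2 gave it a signal of 59.7 at rank 1137, with a −log10 IDR of 3.33. The ranked list of replicate 1 had no summit within 500 bp of TfIIB, and neither did the ranked series list that holds every conservative peak. Its summit was 299 bp upstream of TfIIB and 121 bp from Bug22, which is read the other way, and its GC content was 32.7% against 42.6% in the flanks.

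Taf4, a core subunit of TFIID, had a peak in the thresholded list of replicate 2 alone, with a signal of 49.7 at rank 1528 of the ranked list. Its summit lay 110 bp upstream of one of 3 annotated start sites and inside the gene, and no other gene had a start site within 500 bp of it. The ranked list of replicate 1 held no summit within 150 bp of that place, and its strongest summit at a Taf4 start site was 647 bp away with a signal of 17.8. The Taf4 summit window had 37.6% GC and its flanks 50.5%.

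MED6, a head subunit, also passed in replicate 2 alone, with a signal of 43.8 at rank 1881 of the ranked list. Replicate 1 had a weak summit 2 bp from the same place, with a signal of 17.6 at rank 12081. The start sites of MED6 and Naa80 are 19 bp apart there, and the summit lay within 41 bp of both, 22 bp inside Naa80. It did not lie between the start sites. The strongest promoter summit of MED6 in replicate 1 was another, 663 bp away, with a signal of 18.2.

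**Figure D2:**
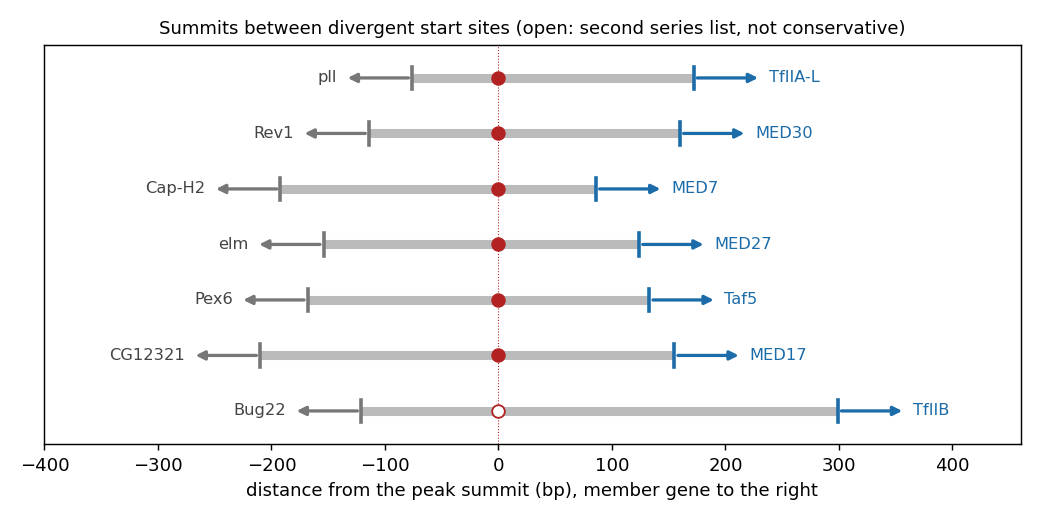
Positions of the summit (circle) and of the start sites (vertical bars, with arrows in the direction of transcription) at 7 member promoters, in bp from the summit, with the member to the right in blue and its divergent neighbour to the left in grey. Filled circles are conservative peaks and the open circle is TfIIB in the second thresholded series list; all 7 summits lie between the start sites, which are 248 to 420 bp apart.

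The setting between divergent start sites was common to all 6 conservative member peaks. The gap between the start sites was 248 bp at TfIIA-L and pll, 274 bp at MED30 and Rev1, and 278 bp both at MED27 and elm and at MED7 and Cap-H2. It was 301 bp at Taf5 and Pex6 and 365 bp at MED17 and CG12321. The conservative summits lay near the middle of the gap, from 15 bp off the midpoint at MED27 to 53 bp at MED7. Some replicate summits were less central. In replicate 1 they lay at -20 bp from MED7 and -258 bp from Cap-H2, and at -221 bp from MED30 and -53 bp from Rev1. In replicate 2 the TfIIA-L summit lay at -195 bp from TfIIA-L and -53 bp from pll. The other replicate had -88 bp at MED7, -159 bp at MED30 and -154 bp at TfIIA-L. The neighbours have varied roles, among them Cap-H2, a condensin II subunit gene, and Pex6, a gene of peroxisome import. A peak between a pair of start sites cannot be assigned to either gene by position. For 4 of the 6 conservative summits the nearest start site was the member's, and for MED30 and TfIIA-L it was the neighbour's. The Taf5 summits of the replicates were instead nearer to Pex6. They lay at -158 bp from Taf5 and -143 bp from Pex6 in replicate 1, and at -159 and -142 bp in replicate 2.

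Most members had a divergent neighbour, with or without a peak. A start site on the other strand lay within 500 bp upstream at 31 of 50 members, or 62%. This was so at 6 of 6 members with a conservative promoter peak and at 25 of the 44 others, or 56.8%. Over all protein-coding genes the shares were 59.4% of the 991 with a conservative promoter peak and 27.3% of the 12977 without.

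Member peaks fell mostly at gaps of intermediate width. Where the nearest divergent start site was 201 to 400 bp away, 5 of 9 members had a conservative promoter peak. These were MED7, MED27 and MED30 of 5 members at 201 to 300 bp, and MED17 and Taf5 of 4 members at 301 to 400 bp. Among all protein-coding genes, 20.3% of 1119 had a peak at 201 to 300 bp and 16.7% of 796 at 301 to 400 bp. At gaps of 1 to 100 bp 0 of 10 members had one, where 12.1% of 898 genes did. TfIIA-L counts here under 105 bp, the gap between its other start site and TTLL6B. At the 19 members with no divergent start site within 500 bp there was no conservative promoter peak, beside 4.09% of 9833 genes.

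The upstream sequence of members without a peak was also AT-rich in many cases. In the window from -185 to -85 bp of the canonical start site, GC content was 21.5% ± 5.15 (SD over genes) at the 6 members with a conservative promoter peak and 31.9% ± 9.30 at the 44 others. The ranges overlapped, from 12.9 to 26.7% and from 17.8 to 60.4%. All protein-coding genes with such a peak stood at 33% ± 11.2, above the members' value, and those without at 36.6% ± 11.1. Tbp and Taf6 had 17.8% GC there, lower than 5 of the 6 members with a peak. Taf6 also has a divergent neighbour 333 bp away, the chromatin regulator gene ash1, and had no promoter summit in any of the 8 lists. By subfamily the means were 29.9% for Mediator, 32.3% for Taf and 30% for general factor genes.

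**Figure D3:**
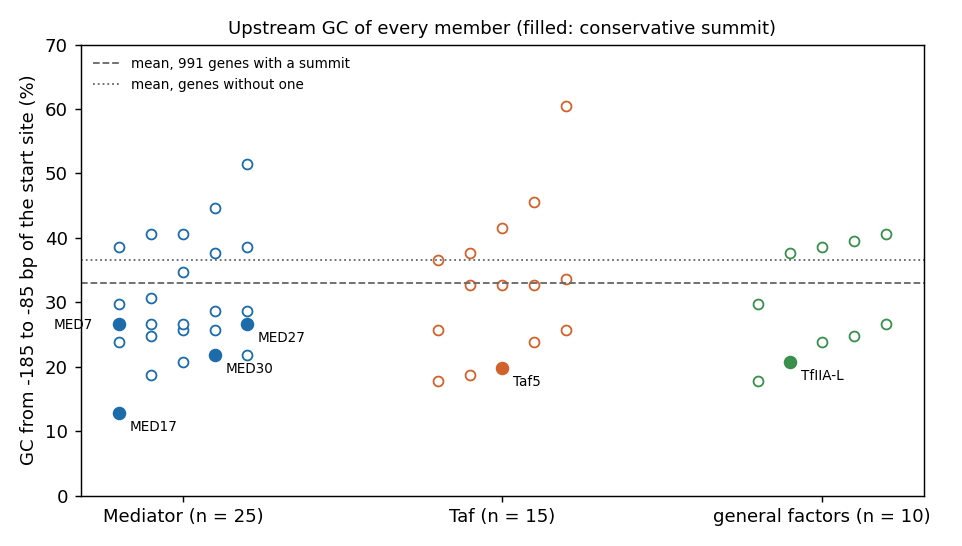
GC content from -185 to -85 bp of the canonical start site (vertical axis, percent) for each of the 50 members, by subfamily, with filled points for the 6 members that have a conservative promoter peak. Dashed and dotted lines are the means over protein-coding genes with (33%) and without (36.6%) such a peak; the filled points lie between 12.9 and 26.7%, and open points overlap them in every subfamily.

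No promoter motif searched for was present in all 6 summit windows. Both strands were searched for TATAAA (the TATA box), TATCGATA (the DRE core), GAGAG (GAGA factor), GGTCACACT (Ohler motif 1 core), CAGCTG (an E-box) and ATATATAT (an AT repeat). A match counted on either strand and at any position, so a TATAAA match need not be a TATA box. TATAAA, TATCGATA and ATATATAT can overlap each other by their ends. In the summit windows, TATAAA was present at MED17 and Taf5, 2 of 6, and in 29.6% of the 767 promoter windows. The other 5 motifs were in none of the 6 windows, and their shares of the 767 ran from 0.130% for GGTCACACT to 7.43% for GAGAG. In the 300 bp promoter, 250 bp before and 50 bp from the start site on, all 50 members were compared with 13967 protein-coding genes. GGTCACACT was in 12 members, or 24%, and in 5.86% of all promoters, and TATCGATA in 10, or 20%, and in 8.94%. GAGAG was in 16% of members and 30.2% of all promoters, TATAAA in 46% and 45.3%, CAGCTG in 16% and 17.9%, and ATATATAT in 4% and 5.99%. Of the 12 members with GGTCACACT, Taf5 had a conservative promoter peak, and of the 10 with TATCGATA, MED7 and MED17 had one.

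Mediator had the largest share of genes with a summit in each ranked list, strong peaks included. In the ranked lists of the replicates, 16 and 18 of 25 Mediator genes had a promoter summit, against 5 and 6 of 15 Taf genes and 6 of 10 general factor genes in each. The shares of all protein-coding genes there were 45.1% and 46.9%. In the ranked series list that holds every conservative peak the counts were 8 of 25, 3 of 15 and 2 of 10, beside 22.2% of all protein-coding genes. In the other ranked series list they were 8, 4 and 3, beside 22.0%. Over genes with a summit in a ranked list and in no thresholded list the order differed, with 14 of 25 Mediator, 6 of 15 Taf and 6 of 10 general factor genes. The share of all protein-coding genes was 52.5%. Differences between the subfamilies were not tested. With 10 to 25 genes in a subfamily, 1 gene moves a share by 4 to 10 percentage points.

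**Figure D4:**
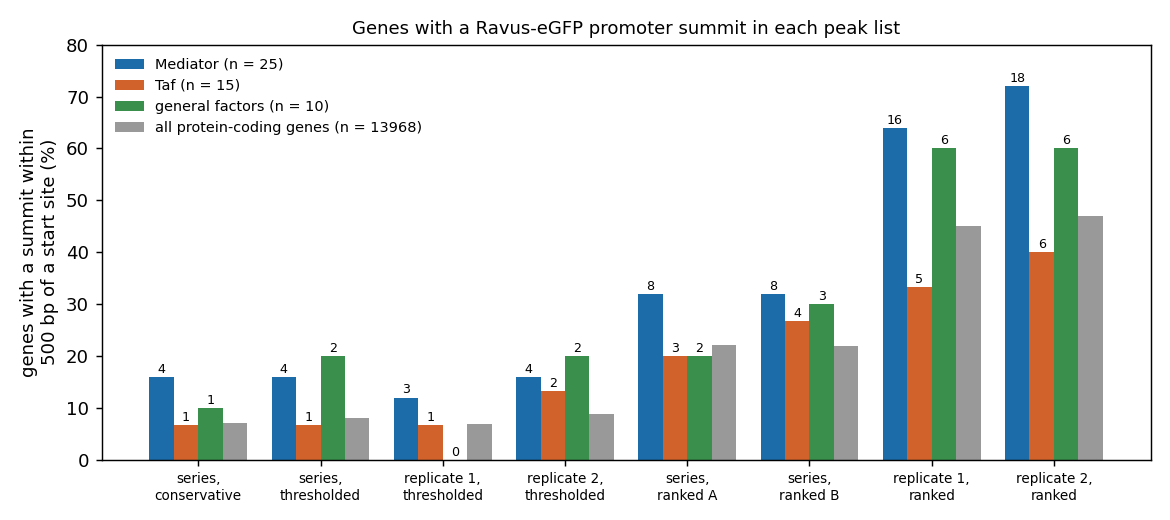
Percent of genes with a summit within 500 bp of a start site (vertical axis) in each of the 8 peak lists (horizontal axis) for the 3 subfamilies and for all 13968 protein-coding genes; numbers above the bars are genes. In the conservative list the bars stand for 4, 1 and 1 genes, and Mediator exceeds Taf in every list. General factors exceed Mediator, at 20% against 16%, in the second thresholded series list and in the thresholded list of replicate 2.

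The replicates held different members past their thresholds. Replicate 1 had 4 of 50 members in its thresholded list, namely MED7, MED27, MED30 and Taf5, or 8% beside 6.99% of all protein-coding genes. Replicate 2 had 8, or 16% beside 8.82%. These were MED6, MED17, MED27, MED30, Taf4, Taf5, TfIIA-L and TfIIB. MED27, MED30 and Taf5 were in both, and they were also the 3 members found in all 8 lists. The second thresholded series list held 7 members, the conservative ones and TfIIB, beside 8.07% of all protein-coding genes.

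With weak peaks included, both replicates' ranked lists had a promoter summit at 22 members, or 44%, beside 29.5% of all protein-coding genes. A summit was in the ranked list of 1 replicate only at 13 members, or 26%, beside 33.0%: replicate 1 alone held 5 and replicate 2 alone 8. Neither held one at 15 members, or 30%, beside 37.5%. At 26 members, or 52%, there was a summit in a ranked list and in no thresholded list, a share near the 52.5% of all protein-coding genes.

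**Figure D5:**
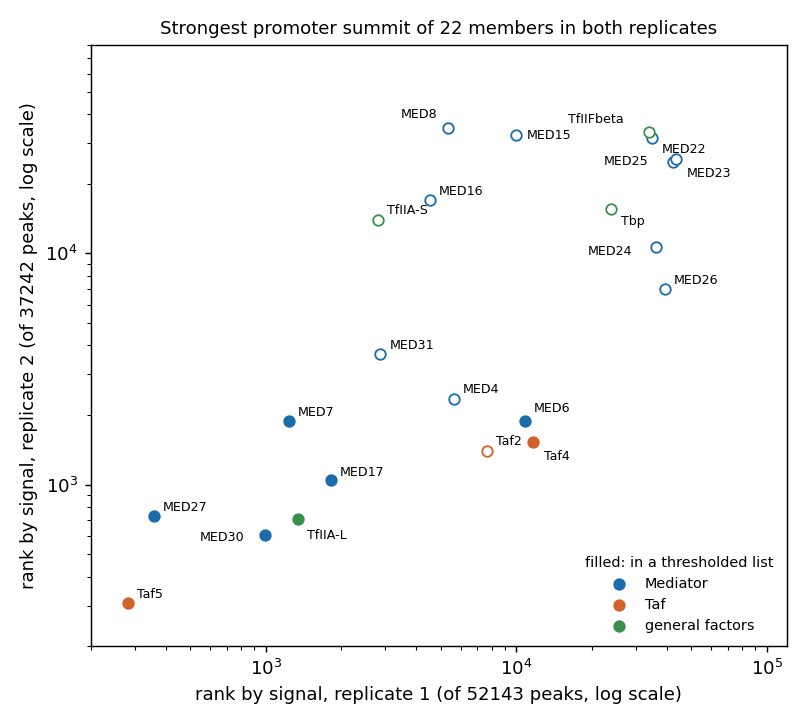
Rank by signal of the strongest promoter summit in replicate 1 (horizontal axis) and replicate 2 (vertical axis), both on log scales, for the 22 members with one in both ranked lists; filled points are members in a thresholded list. The 6 conservative members have ranks from 283 to 1822 in replicate 1 and from 307 to 1882 in replicate 2.

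Among members in no thresholded list with a summit in both replicates' ranked lists, MED31, MED4, Taf2, TfIIA-S and MED16 had the best mean rank. The thresholds rest on the IDR and not on this rank. The −log10 IDR of MED16 was 0.03 in replicate 1 and 0.10 in replicate 2, far under the limit. MED31, of the middle module, had signals of 27.4 and 30.1 at ranks 2868 and 3656, with summits 9 bp apart about 150 bp upstream of the start site. MED4, also of the middle, had 21.9 and 38.1, with summits 2 bp apart. Taf2, a TFIID subunit gene, had 20.1 and 52.5, and its summits lay at -282 and -280 bp. Its −log10 IDR was 0.06 in replicate 1 and 1.76 in replicate 2. At MED31, MED4 and Taf2 the start site nearest to these summits was another gene's in both replicates. A divergent start site lay 125 bp from that of MED31 (CG9775), 113 bp from MED4 (asRNA:CR43470) and 79 bp from Taf2 (CalpB). The summits lay beyond it, not between the start sites. TfIIA-S, of the small TFIIA subunit, had 27.7 and 18.8, and MED16 had 23.4 and 17.6 with its strongest summits 333 bp apart. Replicate 2 also held another MED16 summit at -70 bp, close to that of replicate 1 at -81 bp.

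Tbp, the gene of the TATA-binding protein, had no promoter summit in the series lists or the thresholded lists. The replicates' ranked lists gave it signals of 13.9 and 18.1 at ranks 24016 and 15631, with summits on either side of the start site and 392 bp apart. Taf10 and Taf10b, whose start sites are 45 bp apart, shared 1 weak summit in replicate 2, with a signal of 13.6 at rank 29912. The 15 members with no promoter summit in any list were MED9, MED11, MED14, MED18, MED19, MED28, Taf1, Taf6, Taf8, Taf9, Taf12, Taf12L, Taf13, TfIIA-S-2 and TfIIEalpha. Taf1, which encodes the largest TFIID subunit, had its nearest conservative summit 112766 bp away.

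Partner complexes that the symbols do not catch were counted from 6 lists, of which 60 genes were matched and were not members. Of these, 11 had a conservative promoter peak, or 18.3%, beside 7.09% of all protein-coding genes. Of the 4 genes of the Cdk8 kinase module of Mediator there was none, although skd, its Med13 gene, had one in the thresholded list of replicate 1. Of 10 TFIIH genes Ssl1 and Xpd had one. The Ssl1 peak had a signal of 829 at rank 10, and it is shared with Chro, which encodes the chromosomal protein Chromator. Xpd, a helicase gene, had 109.

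Of 12 RNA polymerase II subunit genes, Polr2B had a signal of 203, Polr2H 171 and Polr2J 155. Of 11 genes of pausing and elongation factors, TH1, a subunit of the negative elongation factor NELF, had 249, Nelf-E 131 and the elongation factor gene Spt6 79.1. The Spt6 peak was in neither replicate's thresholded list, whereas the other 10 were in both. Of 16 SAGA genes, Gcn5, the acetyltransferase gene, had 189 and wda 134. Of 7 genes of TBP relatives and Tafs under other names, Brf, a factor of RNA polymerase III, had 166. The 11 summits lay 76 to 278 bp upstream of these genes, each had 1 other gene with a start site within 500 bp, and all but Spt6 have a divergent neighbour.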

How the data were processed

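The authors deposited 8 peak lists in narrowPeak form on dm6. The file lists beside the samples give their type and parents, and no aligner, peak caller or version is named in the sources used here. Each list gives a signal per peak, the peak caller's own value in the deposited files, and a whole-number score that the authors computed from the IDR, capped at 1000. The deposited ranked lists add the −log10 of the IDR, capped at 5. Thresholded peaks have a score of at least 830, an IDR limit of 0.01. All 1474 conservative peaks stand at the same place in the first ranked series list, and all 1653 of the second thresholded list in the second. Signals of the 2 input lists in each ranked series list, 4 columns in all, were not used.

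Genes and start sites came from Ensembl 115 on BDGP6.54, and sequence from the RefSeq copy of the same assembly. Arm lengths were compared with the largest peak and gene ends, and coordinates are 1-based. With Python 3.11.15, numpy 2.4.6 and pandas 2.3.3, each summit was assigned to every gene with a start site within 500 bp, and the strongest such summit per gene and list gave its signal, rank and distance. The assignment was tested on simulated summits at known distances. No test was run, because there is 1 group and no contrast: counts stand beside the share over all 13968 protein-coding genes. SDs are over genes or peaks, which are not replicates. The named genes were every member in a thresholded list, the 5 further members with the best mean rank over the replicates' ranked lists, members with a conservative summit over 500 and at most 1000 bp away (there was none), Tbp, and the related genes with a conservative promoter peak; Taf1, Taf6, Taf10, Taf10b, Taf12, the tail genes, skd and the members in no list were named after their values were seen. The members and lists were chosen with earlier results of these data known. The upstream GC window is centred on the median summit distance of all promoter peaks, to the nearest 5 bp. The Mediator modules, the gap widths and the match of sites within 150 bp were added after the members' values had been seen. Of 62 names in the related lists, e(y)1 is the member Taf9, rye was not matched to 1 gene, and the other 60 were used. The alternatives were the other lists, windows of 250 and 1000 bp, the stronger peaks, overlap of the peak interval, coding transcripts only, and peaks nearest to the member itself.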

Additional observations from a re-analysis of the deposited data

How the results depend on the processing

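The 6 members and their subfamilies were the same genes with windows of 250 or 1000 bp, with the peak interval in place of the summit, and with coding transcripts only. Among conservative peaks above the median signal, 3 members kept their peak (MED27, MED30 and Taf5), of which 2 were Mediator genes and 0 general factor genes, beside 3.95% of all protein-coding genes. Where the nearest start site had to be the member's own, 4 members and 0 general factor genes had a peak, beside 5.05%. Taf5 was among the 4 by its conservative summit and not by those of the replicates. In the second thresholded series list there were 2 general factor genes. The thresholded list of 1 replicate alone, as counted above, gave 4 to 8 members, 3 to 4 Mediator, 1 to 2 Taf and 0 to 2 general factor genes. The shares of all protein-coding genes were 6.99% in replicate 1 and 8.82% in replicate 2. Peaks were not called again from the reads of 1 replicate. Against the conservative list, that of replicate 2 added the peaks of MED6, Taf4 and TfIIB and lacked that of MED7. The list of replicate 1 lacked those of MED17 and TfIIA-L. The median distance ran from -155 to -128 bp over all settings. No paired analysis was possible because there is only 1 group. The unknown depth limits what an absent peak means.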
